A study of Mus musculus with 11 samples.

Results

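Annexins are a family of proteins that bind membranes carrying negatively charged phospholipids, mostly in a calcium-dependent way. A conserved core of annexin repeats makes the membrane contact, and the variable N-terminal tail of each member binds its own partners, among them small EF-hand proteins of the S100 family. In epithelia such as the bile duct, annexins act at the plasma membrane, on endosomes and on secretory vesicles, and several are used as markers of membrane repair, exocytosis or exposed phosphatidylserine. The annexin genes described here, Anxa1, Anxa2, Anxa3, Anxa4, Anxa5, Anxa6, Anxa7, Anxa8, Anxa10 and Anxa11, were chosen by gene name. They are 10 of the 43346 gene entries in the deposited table, and all 10 passed the filter on low values (at least 1 FPKM, a fragment count scaled to gene length and library size, in at least 3 libraries), which 15264 genes passed.

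The series holds 11 RNA-seq libraries of liver cells from male wildtype C57BL/6 mice aged 14 to 16 weeks, and its title concerns the factor NF-Y and cholangiocyte proliferation in murine cholestasis. Cells were pulled from dissociated livers with beads against EpCAM, a surface protein of bile duct cells, on 2 successive columns, and are labelled cholangiocytes, the epithelial cells that line bile ducts. The R15 group (n = 3) ate the DDC diet for 10 days and then chow for 15 days, the DDC group (n = 4) ate the DDC diet for 10 days, and the Control group (n = 4) ate chow. DDC is a feed compound that makes porphyrin plugs in mouse bile ducts and so injures them. All groups share genotype, sex and strain. The labels do not say whether a library is 1 mouse or a pool, so p-values measure the spread between these libraries, part of which may be technical.

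Libraries held 49339240 to 72929107 reads in genes, as recovered from the FPKM values. Epcam averaged 294 ± 9.19 FPKM in R15, 406 ± 31.9 FPKM in DDC and 289.9 ± 24.2 FPKM in Control (SD), and the 8 bile duct markers summed to 8683 to 9722 FPKM in R15, 9897 to 11045 FPKM in DDC and 8004 to 10969.9 FPKM in Control. Other cells were present too. The summed level of 9 macrophage markers was 135 to 692 FPKM in R15, 1278 to 2274 FPKM in DDC and 119.9 to 143 FPKM in Control. Summed hepatocyte markers reached 1767 to 2443 FPKM in R15, 1035 to 1567 FPKM in DDC and 2895 to 3590.4 FPKM in Control, but single hepatocyte markers differed: of the 8, 5 were higher in R15 than in DDC and 0 lower, 3 were higher and 2 lower in R15 than in Control, and 1 was higher and 4 lower in DDC than in Control. Control 3 carried stomach mucous transcripts, whose summed level ran from 67.3 to 103 FPKM in R15, from 103 to 116 FPKM in DDC and from 77.6 to 11252 FPKM in Control. Pancreatic acinar transcripts were uneven between libraries and were found mostly in Control. They summed to 6157, 1627 and 738 FPKM in Control 1, 2 and 3, 767 FPKM in DDC 1 and 991 FPKM in R15 3. Every other library held at most 11.4 FPKM, and Control 4 was the only Control library among these. In such bulk samples, fewer cells of a type and less RNA per cell cannot be told apart.

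The promoters of the annexin genes were read first. RefSeq entries (build GRCm38.p6) were found for 8 of the 10 genes, not for Anxa3 and Anxa6, with 10 start sites among them, and the 250 bases before each start were searched on both strands. The letters CCAAT, the box that NF-Y binds, occurred in 0 of the 10 windows, while 33.8% of 32851 promoters of that length in the same table held them. The letters TGANTCA, which AP-1 factors bind, occurred before Anxa2 and Anxa10, against 6.75% of all promoters. TATAAA occurred before Anxa1, Anxa2 and Anxa10, against 12.4% of all promoters, and GGGCGG before Anxa2, Anxa7 and Anxa11, against 32.7% of all promoters. Within a window no match overlapped another. The 2 Anxa7 windows overlap each other, and the GGGCGG match 8 bases before start 1 is the same site as that 200 bases before start 2. The promoters below are those of Anxa5, the most abundant annexin and one with no match to any of the 4 motifs, and of Anxa2 and Anxa10, the genes with the AP-1 letters. Each is written 5′ to 3′ on the gene's own strand, with every motif match within the printed bases in capitals. They lie at chr9:69453433-69453619 (plus strand, 187 bases) for Anxa2, at chr3:36475888-36476137 (minus strand) for Anxa5 and at chr8:62123194-62123443 (minus strand) for Anxa10, and the Anxa2 stretch ends where the deposited table starts that gene.
Anxa2: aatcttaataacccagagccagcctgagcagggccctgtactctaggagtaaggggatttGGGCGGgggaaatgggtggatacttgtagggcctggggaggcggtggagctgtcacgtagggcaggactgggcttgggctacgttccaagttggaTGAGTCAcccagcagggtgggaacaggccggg
Anxa5: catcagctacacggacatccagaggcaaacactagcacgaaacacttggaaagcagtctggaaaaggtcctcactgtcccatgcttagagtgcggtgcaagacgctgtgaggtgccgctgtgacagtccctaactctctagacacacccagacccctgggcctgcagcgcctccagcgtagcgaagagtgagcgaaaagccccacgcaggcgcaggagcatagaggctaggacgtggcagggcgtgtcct
Anxa10: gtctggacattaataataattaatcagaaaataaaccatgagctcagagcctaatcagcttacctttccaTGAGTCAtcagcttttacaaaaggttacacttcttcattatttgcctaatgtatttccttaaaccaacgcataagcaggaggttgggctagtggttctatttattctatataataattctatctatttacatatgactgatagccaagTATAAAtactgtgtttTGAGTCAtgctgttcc
The Anxa2 match to the AP-1 letters starts 95 bases before the RefSeq start. Its GGGCGG matches at 48 and 24 bases and its TATAAA at 17 bases before that start are not printed. They lie inside the gene as the deposited table places it. The whole windows of Anxa1, with its TATAAA, and of start number 2 of Anxa4 likewise lie inside their genes. Part of the window of start 2 of Anxa7 does so too. The Anxa10 promoter holds 2 matches to the AP-1 letters, at 180 and 16 bases before its RefSeq start, and TATAAA at 32 bases. The bases after that start were not found in the opening part of GENCODE M21 transcripts of the gene. These distances therefore hold for the RefSeq start only. The same check also failed for Anxa8, Anxa11 and start number 2 of Anxa4. A match is a run of letters and was not tied to binding in these cells.

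Annexin transcripts were reordered in the DDC group. Of the summed FPKM of these 10 genes, Anxa5 gave the largest part in every library, and its share was 72.9 ± 2.24% in R15, 53.9 ± 1.86% in DDC and 72.7 ± 2.88% in Control (SD, n = 3, 4 and 4). The sum itself was 2292 ± 143 FPKM in R15, 1845 ± 76.6 FPKM in DDC and 2433 ± 177 FPKM in Control. Without Anxa5, the other 9 genes summed to 618 ± 20.1 FPKM in R15, 849.7 ± 20.0 FPKM in DDC and 659.9 ± 25.8 FPKM in Control. For these genes the DDC group therefore had the lowest sum with Anxa5 and the highest without it. In both measures the DDC libraries lay apart from every other library. Anxa9 and Anxa13, outside the 10, are in neither sum and were lower in DDC. Together they measured 276 to 313 FPKM in R15, 220 to 245 FPKM in DDC and 345 to 371 FPKM in Control.

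**Figure D1:**
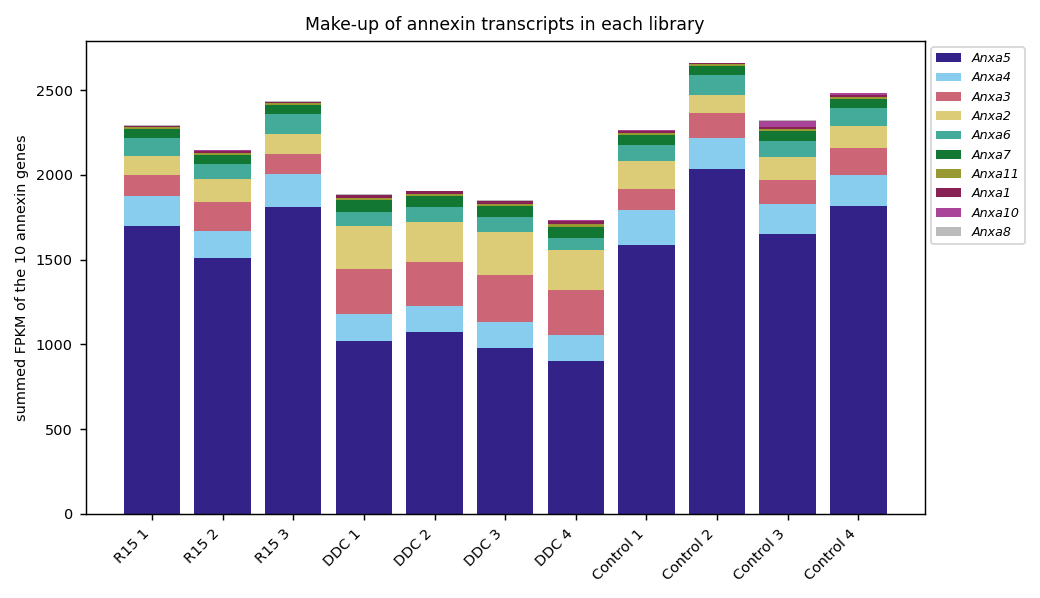
Stacked bars give the FPKM of each of the 10 annexin genes in each of the 11 libraries, R15, DDC and Control from left to right. The Anxa5 segment takes 72.9% of the bar on average in R15, 53.9% in DDC and 72.7% in Control.

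Between DDC and Control, 8 of the 10 annexin genes passed limma's test (adjusted p under 0.05 over all 15264 genes), 5 higher in DDC and 3 lower. The same comparison called 65.4% of all tested genes, 33.5% higher and 31.9% lower, so a count of 8 of 10 lies near what most genes did. The split of all called genes was 5112 higher and 4869 lower, and 4162 higher and 5518 lower with all libraries scaled to 1 FPKM total. The ranges of the DDC and Control libraries did not overlap for those 8 genes, against 61.3% of all genes. The median absolute log2 fold change was 0.85 over the annexins and 0.31 over all genes, while the signed medians were 0.11 and 0.00. The genes were not matched by FPKM for this, and adding 1 to the FPKM holds down the change of low genes. Fold changes here and below are on the log2(FPKM + 1) scale, with the standard error after the ± sign.

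Anxa2, which forms a tetramer with S100a10 and binds plasminogen and its activators at the cell surface, was higher in DDC. Its level was 251, 234, 256 and 237 FPKM in the DDC libraries, against 167, 109.6, 133 and 131 FPKM in the Control libraries. Every DDC library lay above every Control library, and the log2 fold change was 0.87 ± 0.11 (limma adjusted p = 7.4e-05). Anxa3, an annexin best known from neutrophils and vessel-forming endothelium, was also higher in DDC. It measured 267, 263, 276 and 263 FPKM in DDC, against 126, 144, 142 and 157 FPKM in Control. The DDC libraries lay within a narrow band well above the highest Control library, and the log2 fold change was 0.91 ± 0.11 (limma adjusted p = 4.3e-05).

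Anxa1, the glucocorticoid-regulated annexin that signals through formyl peptide receptors to dampen inflammation, measured 16.04, 16.98, 16.16 and 21.51 FPKM in DDC, against 13.02, 3.55, 11.07 and 11.04 FPKM in Control. Control 2 was the low library, and the lowest DDC library still lay above the highest Control one. The log2 fold change was 0.92 ± 0.33 (limma adjusted p = 0.033), and 0.55 without Control 2 (adjusted p = 0.033). That call was close to the threshold: testing without the filter ended it (adjusted p = 0.060), and so did leaving out any single DDC library, with adjusted p of 0.052 without DDC 1, 0.058 without DDC 2, 0.053 without DDC 3 and 0.081 without DDC 4.

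Anxa8, a low-level annexin known from stratified epithelia and late endosomes, measured 2.56, 3.06, 6.04 and 2.92 FPKM in DDC, against 1.03, 0.295, 1.14 and 1.94 FPKM in Control. DDC 3 stood above the other DDC libraries, and the groups did not overlap. The log2 fold change was 1.15 ± 0.27 (limma adjusted p = 0.0037), or 1.84 by limma voom on the recovered reads. Anxa7, a GTP-binding annexin linked to granule fusion and partner of sorcin, changed less. It measured 70.1, 63.3, 63.6 and 64.7 FPKM in DDC, against 59.3, 52.4, 59.1 and 53.7 FPKM in Control. The groups lay close but apart, with a log2 fold change of 0.22 ± 0.05 (limma adjusted p = 0.0032), or 0.13 with 1 FPKM total.

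Anxa5, which binds exposed phosphatidylserine and is used to stain dying cells, had the largest fall in FPKM. It measured 1023, 1075, 980.3 and 903 FPKM in DDC, against 1587, 2038, 1652 and 1814 FPKM in Control. All DDC libraries lay far below the lowest Control library, and the log2 fold change was -0.83 ± 0.11 (limma adjusted p = 8.5e-05). Among all genes ranked by FPKM, Anxa5 stood at places 18 to 23 in the DDC libraries and at places 6 to 13 in the Control libraries. A microRNA gene, Mir7009, lies inside Anxa5 and reached up to 293 FPKM by the authors' counting, so reads of the pair may have been divided between them.

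Anxa4, an annexin of secretory and ductal epithelia that inhibits calcium-activated chloride flow, also fell. It measured 157.3, 150.01, 153.4 and 152.1 FPKM in DDC, against 203, 183, 177 and 188 FPKM in Control. The DDC libraries were tightly grouped below all Control libraries, with a log2 fold change of -0.29 ± 0.07 (limma adjusted p = 0.0027). Without the 5 libraries that held pancreatic transcripts, which leaves only Control 4 in Control, the Anxa4 value was -0.31. Anxa6, the annexin with a doubled core that acts in cholesterol handling and endocytosis, measured 85.7, 89.8, 85.8 and 74.9 FPKM in DDC, against 91.5, 117, 95.8 and 106 FPKM in Control. The highest DDC library lay just under the lowest Control library, and the log2 fold change was -0.28 ± 0.09 (limma adjusted p = 0.023). The Anxa6 call ended without Control 2 (adjusted p = 0.063), without Control 4 (adjusted p = 0.057) or without DDC 4 (adjusted p = 0.068).

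The other 2 genes did not pass. Anxa11, which binds the calcium sensor Pdcd6 and ties RNA granules to lysosomes, measured 13.1, 12.4, 12.7 and 13.6 FPKM in DDC, against 14.0, 12.5, 13.2 and 12.2 FPKM in Control. The ranges overlapped, and the log2 difference of 0.00 had a 95% interval of -0.10 to 0.10 (limma adjusted p = 0.995). Its sign turned under other scalings. Anxa11os, an antisense gene at this locus, reached at most 0.0186 FPKM, and no source used here gives the strand setting of the counting.

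Anxa10, an annexin of gastric epithelium that has lost most calcium-binding sites, was the most uneven member. It measured 0.438, 0.613, 0.454 and 2.14 FPKM in DDC, against 4.29, 0.0485, 37.5 and 8.75 FPKM in Control. Control 3 gave 4633 reads and Control 2 gave 5 reads, so the Control range enclosed all DDC libraries. The log2 fold change was -1.90 ± 0.88 (limma adjusted p = 0.082). It was -2.80 without Control 2, which passed (adjusted p = 0.0035), and -1.07 without Control 3, which did not. Control 3 was also the library with the highest summed stomach mucous markers, 11252 FPKM, and their part in the Anxa10 level was not tested.

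**Figure D2:**
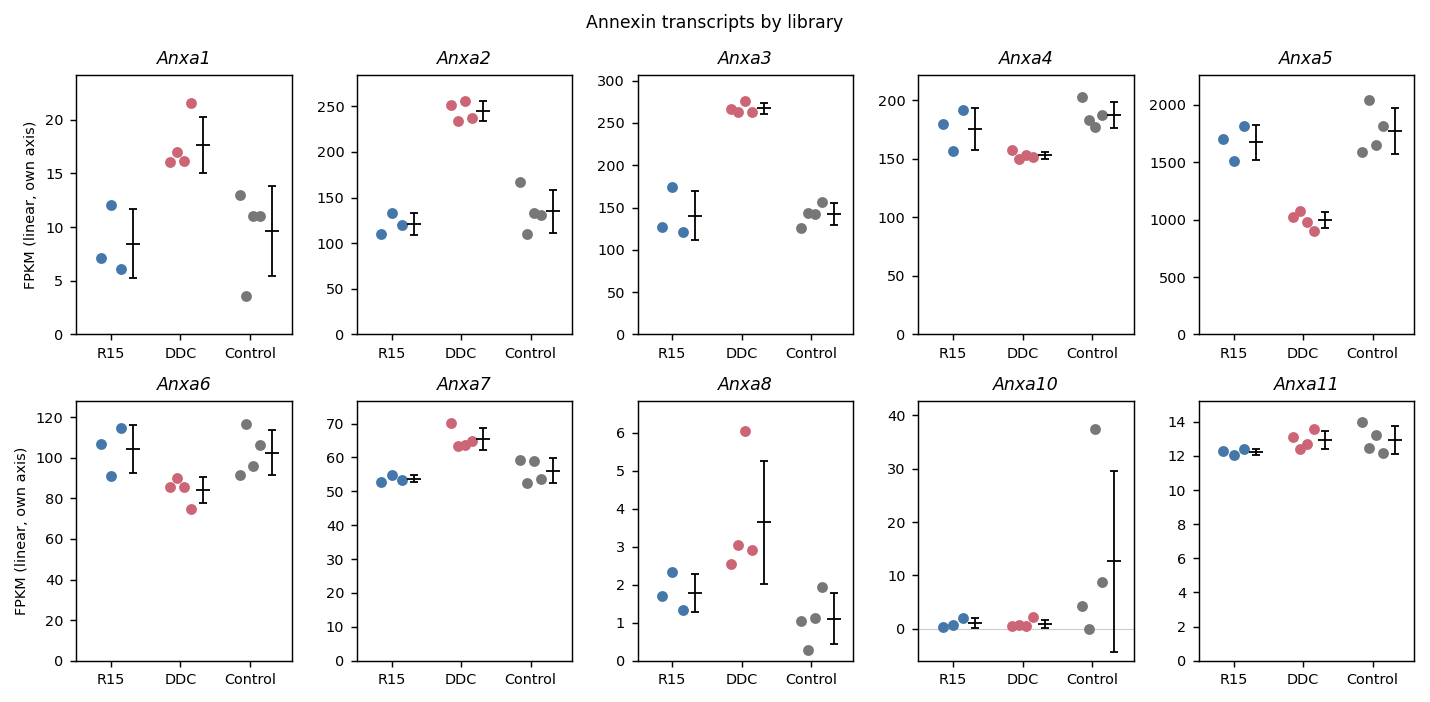
Each panel plots the FPKM of 1 annexin gene on its own linear axis, with 1 point per library and the mean and SD of R15 (n = 3), DDC (n = 4) and Control (n = 4). Anxa2 and Anxa3 sit highest in DDC, Anxa4, Anxa5 and Anxa6 lowest in DDC, and Anxa10 is spread over the Control libraries from 0.0485 to 37.5 FPKM.

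After the return to chow, 7 of the 10 annexin genes differed between R15 and DDC by limma's test, 3 higher in R15 and 4 lower. Over all tested genes 62.2% passed, 33.4% higher and 28.8% lower, a share close to that of the annexins. The split of all called genes was 5099 higher and 4397 lower, and 6172 higher and 3305 lower when all libraries were scaled to 1 FPKM total. The ranges did not overlap for 7 annexins, against 66.6% of all genes. The median absolute log2 fold change was 0.50 over the annexins and 0.31 over all genes, and the signed medians were -0.18 and 0.04. This comparison and that of DDC with Control share the DDC libraries, so their fold changes are not independent of each other.

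Anxa2 measured 109.6, 133 and 119.6 FPKM in R15, all below the lowest DDC library at 234 FPKM. The log2 fold change was -1.02 ± 0.12 (limma adjusted p = 6.7e-05). Anxa3 measured 126, 174 and 121 FPKM in R15, against at least 263 FPKM in every DDC library. R15 2 was the highest of the R15 libraries for both genes, and the Anxa3 log2 fold change was -0.94 ± 0.12 (limma adjusted p = 8.4e-05). Anxa7 fell to 52.8, 54.8 and 53.4 FPKM in R15, against 63.3 FPKM or more in DDC. Its log2 fold change was -0.28 ± 0.05 (limma adjusted p = 0.0014), or -0.16 with 1 FPKM total.

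Anxa1 measured 7.15, 12.1 and 6.06 FPKM in R15, against 16.0 to 21.5 FPKM in DDC. The groups did not overlap, and the log2 fold change was -1.03 ± 0.36 (limma adjusted p = 0.030). The call was lost without DDC 2 (adjusted p = 0.052), DDC 4 (adjusted p = 0.070), R15 1 (adjusted p = 0.087) or R15 3 (adjusted p = 0.11), and with no filter (adjusted p = 0.056). Anxa8 measured 1.71, 2.32 and 1.34 FPKM in R15, all under the lowest DDC value of 2.56 FPKM. Its log2 fold change of -0.69 ± 0.29 did not pass (limma adjusted p = 0.062). It passed in 4 of 23 alternatives. These included a pseudocount of 5 (limma adjusted p = 0.047) and the fit with only the groups compared (adjusted p = 0.043). The others were without Control 2 (adjusted p = 0.033) or Control 4 (adjusted p = 0.045). Those libraries enter this comparison only through the shared estimate of the spread.

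Anxa5 was higher in R15. It measured 1697, 1511 and 1812 FPKM in R15, against 903 to 1075 FPKM in DDC. The groups lay far apart, the log2 fold change was 0.75 ± 0.12 (limma adjusted p = 0.00036), and Anxa5 ranked at places 8 to 14 among all genes in R15 libraries. Anxa6 measured 107, 91.3 and 115 FPKM in R15, against 74.9 to 89.8 FPKM in DDC. The R15 libraries were all above the DDC ones, R15 2 by the least, and the log2 fold change was 0.30 ± 0.10 (limma adjusted p = 0.024). Without DDC 4, R15 1 or R15 3 that call ended, with adjusted p of 0.063, 0.073 and 0.10.

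Anxa4 measured 179.6, 156 and 192 FPKM in R15, against 150.01 to 157.3 FPKM in DDC. R15 2 lay inside the DDC range, so the groups overlapped although the test passed with a log2 fold change of 0.19 ± 0.07 (limma adjusted p = 0.035). The Anxa4 call ended without DDC 2 (adjusted p = 0.075), DDC 3 (adjusted p = 0.064), DDC 4 (adjusted p = 0.066), R15 1 (adjusted p = 0.10) or R15 3 (adjusted p = 0.15), with median-of-ratios scaling (adjusted p = 0.12) and with no filter (adjusted p = 0.061). With quantile normalization the Anxa4 value was 0.41. Anxa11 measured 12.3, 12.0 and 12.4 FPKM in R15, against 12.4 to 13.6 FPKM in DDC, a log2 difference of -0.07 ± 0.05 (limma adjusted p = 0.23). Anxa10 measured 0.323, 0.666 and 2.07 FPKM in R15, against 0.438 to 2.14 FPKM in DDC, and its log2 difference was 0.07 ± 0.95 (limma adjusted p = 0.96).

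**Figure D3:**
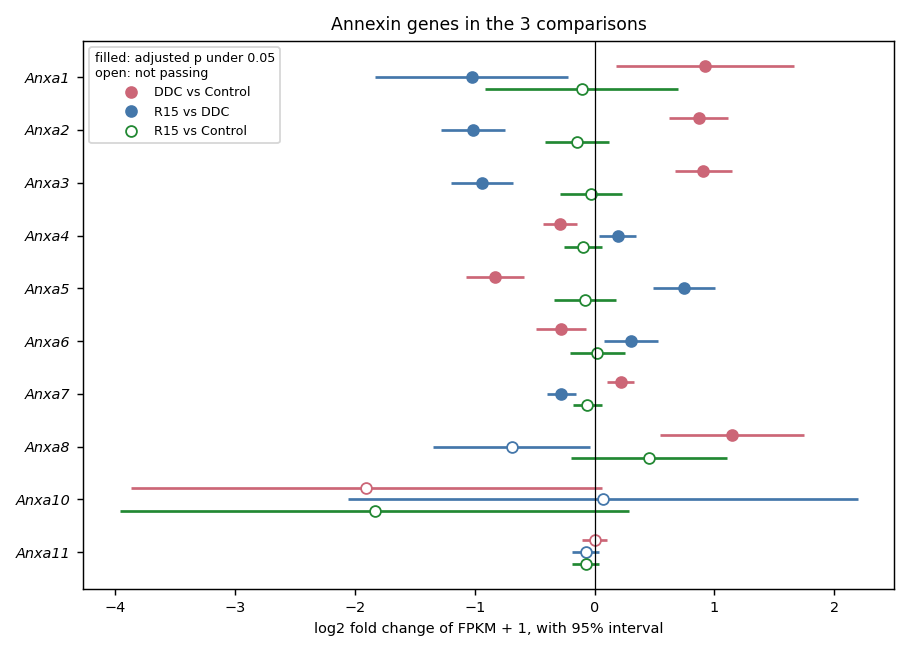
Points give the log2 fold change of FPKM + 1 for each annexin gene in the 3 comparisons, with 95% intervals, filled where the limma adjusted p was under 0.05. In DDC against Control 5 filled points lie above 0 and 3 below, in R15 against DDC 3 lie above and 4 below, and in R15 against Control all 10 are open.

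Between R15 and Control, 0 of the 10 annexin genes passed limma's test, while 9.58% of all tested genes did, 6.87% higher and 2.72% lower. That split, 1048 higher and 415 lower, became 682 and 707 with median-of-ratios scaling. The count of all called genes, 1463, also moved with single libraries, as low as 685 without R15 1 and as high as 2186 without Control 2. At an unadjusted p under 0.05 the annexin count was also 0, with a lowest p of 0.083, and limma voom on the recovered reads also called 0. The ranges of the groups overlapped for all 10 genes, while 21.3% of all genes did not overlap. The median absolute log2 fold change was 0.09 over the annexins and 0.12 over all genes, and the signed medians were -0.08 and 0.05.

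The intervals say how large a difference could have been missed. The log2 difference was -0.06 with a 95% interval of -0.18 to 0.06 for Anxa7, and -0.07 with an interval of -0.19 to 0.04 for Anxa11. For Anxa4 it was -0.10 (-0.25 to 0.06), for Anxa6 0.02 (-0.20 to 0.25), and for Anxa5 -0.08 (-0.34 to 0.18). For Anxa5 the interval leaves out a fall of the size seen in DDC, -0.83, while for Anxa4 and Anxa6 the bounds come near their DDC differences of -0.29 and -0.28. Anxa3 had -0.03 (-0.29 to 0.23) and Anxa2 -0.15 (-0.42 to 0.12). The intervals were widest for 3 genes, with -0.11 (-0.91 to 0.69) for Anxa1, 0.45 (-0.20 to 1.11) for Anxa8 and -1.84 (-3.96 to 0.29) for Anxa10. The upper bound for Anxa8 also comes near its DDC difference, 1.15. The Anxa10 difference was -2.73 without Control 2, which passed (limma adjusted p = 0.029), and -0.999 without Control 3, which did not (adjusted p = 0.42).

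The 10 genes were ranked by FPKM, which is per length. The order at the top was Anxa5, Anxa4, Anxa3, Anxa2, Anxa6, Anxa7 in both R15 and Control. In DDC the order was Anxa5, Anxa3, Anxa2, Anxa4, Anxa6, Anxa7, Anxa1, Anxa11, Anxa8 and Anxa10, and no neighbours in it overlapped between libraries. In R15 the neighbours that overlapped were Anxa4 and Anxa3, Anxa3 and Anxa2, Anxa2 and Anxa6, Anxa11 and Anxa1, and Anxa8 and Anxa10. In Control they were Anxa3 and Anxa2, Anxa2 and Anxa6, Anxa11 and Anxa10, and Anxa10 and Anxa1. Among these 10, Anxa4 thus came next after Anxa5 in R15 and Control, and after Anxa3 and Anxa2 in DDC. Anxa13, which is outside the 10, measured more than Anxa4 in every library.

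Among the 3 R15 libraries, R15 2 lay nearest the DDC mean for 8 of the 8 annexins called between DDC and Control. The same held for 52.6% of all genes called there. R15 2 also had the highest macrophage sum of its group, 692 FPKM, against 135 FPKM in R15 1 and 161 FPKM in R15 3. Between DDC and Control 8 of the 9 macrophage markers were higher in DDC, and between R15 and DDC 7 of the 9 were lower in R15. The part of macrophage transcripts in the annexin levels was not tested.

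Neutrophil markers summed to 2.605 to 9.828 FPKM in R15, 41.1 to 69.0 FPKM in DDC and 1.31 to 3.87 FPKM in Control, of which Ly6g, Mpo and Elane never exceeded 0.0430, 0.0156 and 0.0167 FPKM. Endothelial markers went the other way, with sums of 38.6 to 141 FPKM in R15, 9.05 to 28.8 FPKM in DDC and 56.3 to 244 FPKM in Control. All 8 endothelial markers were lower in DDC than in Control. The part of neutrophil, endothelial and hepatocyte transcripts in the annexin levels was not tested.

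**Figure D4:**
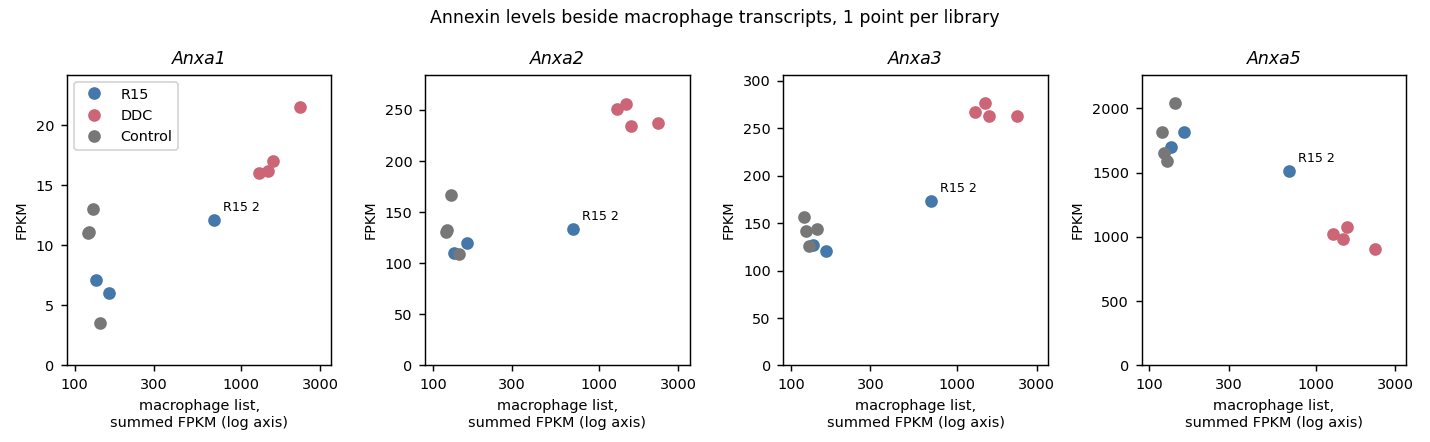
Points give the FPKM of Anxa1, Anxa2, Anxa3 and Anxa5 in each library against the summed FPKM of 9 macrophage markers on a log axis. The 4 DDC libraries lie at macrophage sums of 1278 to 2274 FPKM, and R15 2, at 692 FPKM, lies between them and the other R15 and Control libraries.

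Most EF-hand genes whose proteins bind annexins were higher in DDC. Of 9 such genes, all tested, 6 were higher and 1 lower in DDC than in Control (33.5% and 31.9% of all genes). In R15 against DDC, 0 were higher and 6 lower (33.4% and 28.8% of all genes). The median log2 fold changes were 0.46 and -0.65, against 0.00 and 0.04 over all genes. S100a11, the partner of Anxa1, measured 823, 837, 936 and 732 FPKM in DDC, against 271, 327, 344 and 308 FPKM in Control. The DDC level was far above every Control library, with a log2 fold change of 1.41 ± 0.09 (limma adjusted p = 9.8e-07). S100a10, which pairs with Anxa2, measured 156, 148, 159.6 and 139.9 FPKM in DDC, against 114, 95.5, 121 and 109 FPKM in Control, and changed by 0.46 ± 0.08 (limma adjusted p = 0.00072). Pdcd6, the partner of Anxa11, changed by 0.45 ± 0.04 (limma adjusted p = 7.6e-06), while Anxa11 itself did not pass. S100a4, which many immune cells express, changed by 3.49 ± 0.33 (limma adjusted p = 1.0e-05), and macrophage markers moved the same way. The part of macrophage transcripts in the levels of these EF-hand genes was not tested.

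In R15 against DDC these 4 partners were lower. The log2 fold changes were -1.18 for S100a11, -0.65 for S100a10, -0.49 for Pdcd6 and -2.30 for S100a4, all past the limma threshold.

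The plasmin system, which meets Anxa2 and S100a10 at the cell surface, had the largest median change of the related lists. Of its 6 genes, 5 were higher and 0 lower in DDC than in Control (33.5% and 31.9% of all genes). In R15 against DDC, 0 were higher and 5 lower (33.4% and 28.8% of all genes). The medians were 1.87 and -1.83. Macrophage markers (8 of 9 higher in DDC than in Control, 7 of 9 lower in R15 than in DDC) and the 3 tested neutrophil markers (3 higher, then 3 lower) went the same way, and their part in the plasmin genes was not tested. Plat, which encodes the tissue plasminogen activator, measured 43.4, 41.2, 51.8 and 40.8 FPKM in DDC, against 0.578, 0.698, 0.959 and 1.69 FPKM in Control. It was near the filter's limit in Control libraries and at least 40.8 FPKM in every DDC library, with a log2 fold change of 4.54 ± 0.16 (limma adjusted p = 5.3e-08). Plau, the urokinase gene, measured 25.4, 27.0, 26.5 and 24.6 FPKM in DDC, against 0.921, 1.45, 3.67 and 2.34 FPKM in Control, a log2 change of 3.20 (limma adjusted p = 6.4e-06). Plaur, its receptor, changed by 2.24 (limma adjusted p = 2.3e-06). In R15 against DDC the log2 fold changes were -3.23 for Plat, -2.61 for Plau and -2.07 for Plaur, all past the threshold.

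Genes around Anxa1 gave a mixed picture. Of 10 receptor and eicosanoid genes, 8 were tested. In DDC against Control, 3 were higher and 2 lower (33.5% and 31.9% of all genes). In R15 against DDC, 2 were higher and 3 lower (33.4% and 28.8% of all genes). Fpr2, the receptor through which Anxa1 acts in mice, measured 0.772, 1.19, 1.45 and 1.49 FPKM in DDC, against 0.394, 0.254, 0.178 and 0.333 FPKM in Control. It changed by 0.78 (limma adjusted p = 0.0093), a value that the pseudocount of 1 holds down at such low levels. Fpr1, which also binds Anxa1 peptides, had a log2 difference of 0.74 that did not pass (limma adjusted p = 0.10). R15 2 held 3.81 FPKM of Fpr1 and 1.36 FPKM of Fpr2, against at most 0.292 and 0.215 FPKM in the other R15 libraries, and it was the R15 library with the high macrophage sum. Tsc22d3, a glucocorticoid-induced gene like Anxa1, fell by 1.68 on the log2 scale in DDC against Control, and Nr3c1, the glucocorticoid receptor gene, fell by 0.49, while Anxa1 was higher. Alox5ap, which serves leukotriene synthesis, changed by 2.596. Between R15 and DDC the log2 fold changes were 1.23 for Tsc22d3, 0.53 for Nr3c1 and -2.13 for Alox5ap, and each of the 3 genes passed in both comparisons.

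The 13 genes that expose, flip or recognise phosphatidylserine, the lipid that Anxa5 binds, were all tested. In DDC against Control, 2 were higher and 6 lower (33.5% and 31.9% of all genes). In R15 against DDC, 5 were higher and 4 lower (33.4% and 28.8% of all genes). Gas6, which bridges phosphatidylserine to receptor kinases, measured 514, 501, 493 and 547 FPKM in DDC, against 1138, 1217, 1042 and 1085 FPKM in Control. Like Anxa5 it was lower in every DDC library, with a log2 fold change of -1.12 (limma adjusted p = 3.5e-06). Tmem30a, a subunit of lipid flippases, changed by -0.51 and Plscr1, named a phospholipid scramblase, by 1.55, both past the threshold. In R15 against DDC the log2 fold changes were 1.07 for Gas6, 0.36 for Tmem30a and -1.13 for Plscr1.

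Of 12 scaffold and membrane repair genes, 11 were tested. In DDC against Control, 5 were higher and 2 lower (33.5% and 31.9% of all genes). In R15 against DDC, 3 were higher and 4 lower (33.4% and 28.8% of all genes). Cav1, the caveolin gene, changed by -1.24 in DDC against Control and by 1.52 in R15 against DDC. Chmp4b, an ESCRT-III gene, changed by 0.51 and -0.54, and Myof, a ferlin, by 0.76 and -0.33, in the same comparisons. The second Myof call ended without R15 3 (adjusted p = 0.073), without the 5 libraries with pancreatic transcripts (0.054), with 1 FPKM total (0.12) and with quantile normalization (0.066). Ahnak, the large scaffold that binds the Anxa2 and S100a10 complex, had a log2 difference of -0.07 in DDC against Control (limma adjusted p = 0.66) and of 0.35 in R15 against DDC (limma adjusted p = 0.045). The Ahnak call held in 15 of 24 alternatives, and it ended without Control 2 (adjusted p = 0.057), DDC 1 (0.068), DDC 2 (0.084), DDC 3 (0.095), DDC 4 (0.060), R15 1 (0.11) or R15 2 (0.17), with no filter (0.078) and with median-of-ratios scaling (0.073). Of 9 copine genes, another family that binds phospholipids through calcium, 4 were tested. In DDC against Control, 2 were higher and 1 lower (33.5% and 31.9% of all genes). In R15 against DDC, 1 was higher and 1 lower (33.4% and 28.8% of all genes). Cpne3, Cpne8 and Cpne1 changed by -0.27, 0.42 and 0.19 in DDC against Control. The Cpne1 call held in 16 of 24 alternatives, and it ended without Control 1 (adjusted p = 0.060), Control 3 (0.058), DDC 2 (0.053), DDC 3 (0.058) or DDC 4 (0.062), without Control 1 and 3 together (0.20), without the 5 libraries with pancreatic transcripts (0.068) and with 1 FPKM total (0.27). The Cpne8 call ended without Control 1 and 3 (adjusted p = 0.0504) and without those 5 libraries (0.23). Between R15 and Control, at most 2 genes of any of these lists were higher and at most 1 lower. Over all genes, 6.87% were higher and 2.72% lower there.

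**Figure D5:**
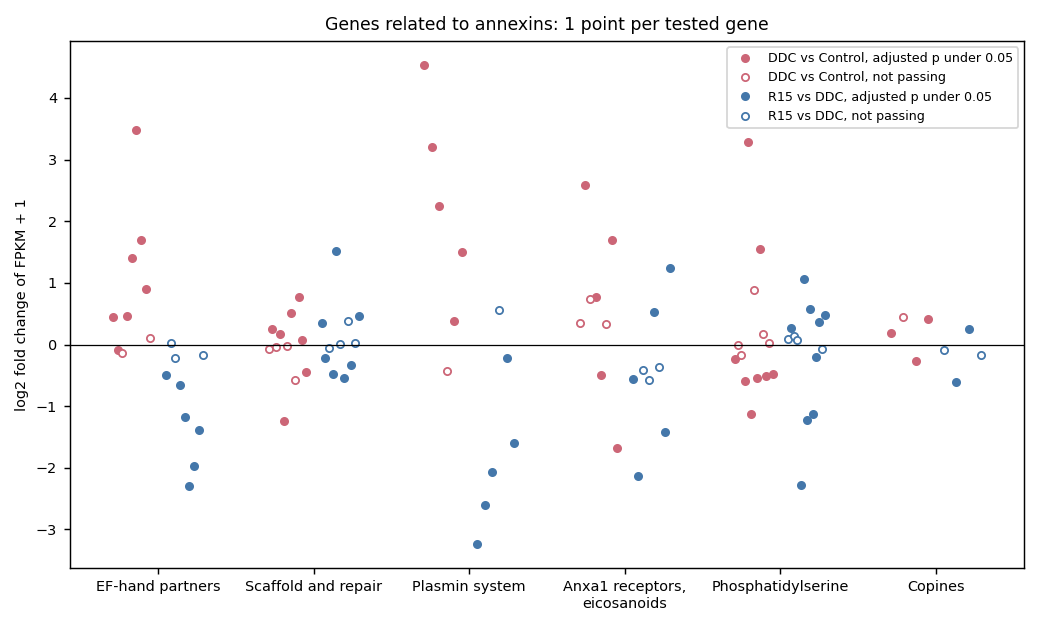
Each point is the log2 fold change of FPKM + 1 of 1 tested gene in a related list, filled where the limma adjusted p was under 0.05, for R15 against DDC and DDC against Control. The plasmin and EF-hand lists lie mostly above 0 in DDC against Control and below 0 in R15 against DDC, with Plat farthest out at 4.54 and -3.23.

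Anxa9 and Anxa13 are annexin genes outside the 10, and Anxa13 was the more abundant of them in these cells. Anxa13, an annexin of intestinal and renal epithelium, measured 279, 253 and 271 FPKM in R15, 233, 211, 218 and 209 FPKM in DDC, and 329, 321, 324 and 337 FPKM in Control. Every DDC library was below every other, R15 lay between, and the log2 fold changes were -0.59 ± 0.05 for DDC against Control (limma adjusted p = 5.0e-06), 0.30 ± 0.05 for R15 against DDC (limma adjusted p = 0.00093) and -0.29 ± 0.05 for R15 against Control (limma adjusted p = 0.012). The last of these calls ended with 1 FPKM total (adjusted p = 0.057), with quantile normalization (adjusted p = 0.062), with only the groups compared (adjusted p = 0.077), without Control 1 and 3 (adjusted p = 0.058) and without the 5 libraries that held pancreatic transcripts (adjusted p = 0.25). Anxa9 measured 28.8 ± 5.26 FPKM in R15, 11.5 ± 0.282 FPKM in DDC and 29.1 ± 6.78 FPKM in Control (SD). Its log2 fold changes were -1.24 for DDC against Control and 1.24 for R15 against DDC, both past the limma threshold. The gene Mindy1, at up to 29.4 FPKM, overlaps Anxa9, so reads of that pair may be shared.

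For each annexin, the genes with the most similar profile over the 11 libraries were listed by Pearson r on the log2(FPKM + 1) scale, as a description, among genes with a mean of at least 5 FPKM, clone-type symbols aside. The libraries fall into diet groups, so r is also given after each group's mean was removed. Anxa5 was most like Bsg, which encodes basigin, with r of 0.995, and 0.95 with group means removed. Anxa2 was most like Actg1, a cytoplasmic actin gene, with r of 0.99 and 0.89. Anxa1 was most like S100a6, an EF-hand gene, with r of 0.96 and 0.92, and Anxa6 most like Rtn4, a reticulon gene, with 0.97 and 0.94. Anxa3 had Krt80 at 0.98 and 0.87, Anxa4 had Eepd1 at 0.97 and 0.91, and Anxa7 had Tubb4b at 0.97 and 0.85. Anxa8 had Snord78 at 0.94 and 0.87, Anxa10 had Fcgbp, a mucus gene, at 0.96 and 0.93, and Anxa11 had Fem1a at 0.94 and 0.95. Among pairs of annexins with group means removed, Anxa5 and Anxa6 had r of 0.98, while Anxa1 had -0.87 with Anxa5 and -0.85 with Anxa6.

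In the deposited coordinates (mm10), the annexin genes lie on 8 chromosomes, with Anxa7 at chr14:20455261-20480133, Anxa8 at chr14:34085981-34100571 and Anxa11 at chr14:25842156-25886804 on a single one. Anxa5 (ENSMUSG00000027712) spans chr3:36448926-36475887, Anxa2 (ENSMUSG00000032231) chr9:69453620-69491795 and Anxa3 (ENSMUSG00000029484) chr5:96793385-96845968. Anxa1 spans chr19:20373428-20390944, Anxa4 chr6:86736840-86793584, Anxa6 chr11:54979108-55033445 and Anxa10 chr8:62057042-62123118. Of the 3 genes on chromosome 14, Anxa7 and Anxa8 were higher in DDC than in Control and Anxa11 did not pass.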

How the data were processed

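Polyadenylated RNA of EpCAM-selected liver cells was sequenced with a stranded mRNA kit, per the labels' protocols. The authors deposited FPKM values per gene for 43346 gene entries with mm10 coordinates (build per the submitters' processing notes). No source used here names the aligner, the counter or its strand setting. In every library, 100.0% of values above 0 were whole multiples of 1 read (within 0.001), which gave 49339240 to 72929107 reads per library; an FPKM between 0.9 and 1.1 rested on a median of 122.5 reads.

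Genes with at least 1 FPKM in at least 3 libraries were kept (15264). limma 3.58.1 in R 4.3.3 was fitted to log2(FPKM + 1) over all 11 libraries with a term for each group and a trended variance, and 2-sided p-values were adjusted by Benjamini-Hochberg over all tested genes, with a threshold of 0.05. The pseudocount understates the change of low genes. Because every annexin passed the filter, the exact permutation test planned for genes under it was not needed. Promoters came from RefSeq GRCm38.p6.

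The annexin genes, the related gene lists and the marker lists were chosen with earlier results of these data known. Named are all 10 annexins, Anxa9, Anxa13, the 3 genes of each related list with the smallest p between DDC and Control, 6 genes picked in advance (S100a10, S100a11, Ahnak, Fpr1, Fpr2, Epcam), and the gene most like each annexin. Replicate numbers were not taken to pair libraries. The fit was run on simulated data in which genes varied independently and few of them changed. That run does not bear on calls as frequent as those made here.

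Alternatives were other pseudocounts, filters, scalings, thresholds and sets of libraries, a replicate block, and limma voom on the recovered reads.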

Additional observations from a re-analysis of the deposited data

Results flagged for a closer look

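Of 70 gene and group values examined in groups of 4 libraries, 4 had 1 library far from the others, and chance alone flags about 1 in 20. Anxa8 measured 6.04 FPKM in DDC 3, against 2.56 to 3.06 FPKM in the other DDC libraries. Anxa10 measured 2.14 FPKM in DDC 4, against 0.438 to 0.613 FPKM in the other DDC libraries. Fpr1 was low in DDC 1, at 1.15 FPKM against 1.81 to 1.88 FPKM in the other DDC libraries, and in Control 1, at 0.279 FPKM against 0.708 to 0.731 FPKM in the other Control libraries.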

How the results depend on the processing

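Over 8 alternatives that changed the pseudocount, the scaling, the variance model, the test (limma voom) or the filter's level, and over the fit restricted to the groups compared, the annexin count stayed at 7 or 8 for DDC against Control and at 6 to 8 for R15 against DDC, and it was 0 for R15 against Control. Without a filter the counts were 7, 5 and 0, and at a filter of 5 FPKM Anxa8 and Anxa10 were not tested. With all 5 libraries that held pancreatic transcripts left out, Control kept a single library, assumed to vary like the other groups, and 5 annexins passed between DDC and Control (3 higher, 2 lower), where Anxa1, Anxa4, Anxa6 and Anxa8 no longer passed and Anxa10 did. At an adjusted p under 0.01, 4 passed between R15 and DDC (1 higher, 3 lower). Leaving out 1 library in turn gave 6 to 8 annexins for DDC against Control, 4 to 8 for R15 against DDC, where 4 came without DDC 4, R15 1 or R15 3, and 0 to 1 for R15 against Control.

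Same-numbered libraries correlated at -0.28 to 0.30 over 10 pairs, against -0.54 to 0.60 for other pairs. These ranges overlap and cannot decide whether libraries were paired. The library names carry a different serial number in each library, so the replicate numbers were not taken as pairs. With the replicate number as a block, 6, 5 and 0 annexins passed (DDC against Control, R15 against DDC, R15 against Control).

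Some differences near 0 turned sign. Anxa11 in DDC against Control was -0.012 with median-of-ratios scaling, -0.081 with 1 FPKM total, -0.013 with quantile normalization and -0.00051 with voom, and -0.027 to 0.036 with 1 library out. In R15 against DDC, Anxa10 was -0.39 with the 5 libraries out and -0.28 to 0.34 with 1 library out, while with 1 FPKM total Anxa11 was 0.035 and Cpne1 0.023. In R15 against Control without Control 1 and 3, Anxa1 was 0.30, Anxa2 0.0081, Anxa6 -0.099 and Anxa7 0.017. In that comparison Anxa6 was also -0.031 with median-of-ratios scaling and -0.10 with the 5 libraries out, Anxa7 0.0031 with the 5 out, and Anxa3 0.018 with quantile normalization. Anxa9 there was 0.027 with 1 FPKM total, 3.0e-05 with quantile normalization, 0.034 with the block and 0.0040 with voom. With 1 library out, R15 against Control gave -0.48 to 0.074 for Anxa1, -0.20 to 0.064 for Anxa3, -0.048 to 0.12 for Anxa6 and -0.14 to 0.14 for Anxa9. None of these turned values passed the limma threshold, and the cause was not tested.

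Over all genes, R15 against Control called 1463 genes, but 317 with only the groups compared, 693 with the block, 511 without Control 1 and 3, 10 with the 5 libraries out and 346 at an adjusted p under 0.01, and 685 to 2186 with 1 library out. Scaling to 1 FPKM total moved the median gene by 0.10 (log2) in R15 against DDC. With 3 or 4 libraries a group, the intervals were widest for Anxa1, Anxa8 and Anxa10.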
